A study of Homo sapiens with 6 samples.

Results

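The untreated transcriptome described here is that of WT ARPE-19 cells. This established line of human origin arose spontaneously from retinal pigment epithelium (RPE). RNA-seq had been carried out on 6 libraries of this line, 3 from WT cells and 3 from a POLDIP2 KO line. Only the 3 WT libraries were used, which the labels number as biological replicates 1, 2 and 3. All 3 carried the wildtype genotype, were kept under regular maintenance and were taken at day 3. The study kept the line in serum-containing medium and passaged it before confluence. All libraries come from 1 line, and nothing says whether the replicates were separate cultures, so the spread among them may be technical. A gene was included when its mean normalised count over the 3 WT libraries was at least 10, which held for 14671 of the 37902 genes in the table (38.7%). The normalised count is the number of reads assigned to a gene, divided by a factor that brings the libraries to a common scale. Values given in threes are in the order of WT replicates 1, 2 and 3, and values after ± are SDs over the 3 libraries (n = 3). No comparison with the knockout was made, and no test was run, since a single group offers none.

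The RPE is a pigmented monolayer behind the neural retina. It recycles the retinoid of the visual pigments, engulfs the tips of photoreceptor outer segments, moves ions, lactate and glucose between the choroid and the retina, and deposits part of Bruch's membrane. Its fate is set by a small group of transcription factors, among them MITF, OTX2 and PAX6, and its mature functions depend on genes such as RPE65, BEST1 and TYR. RPE cells that divide in culture can lose pigment and take on traits of mesenchymal cells, with intermediate filaments of vimentin, a contractile actin cytoskeleton and abundant fibronectin and collagen.

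Depth was similar across the libraries, with 39657489, 36517259 and 35515478 assigned reads. Of the 14671 genes, 13794 had a symbol in GENCODE release 44 and 877 did not, and the latter took 3.46% to 3.74% of the counts of a library. Protein-coding genes accounted for 13106 of them, or 67.4% of the 19441 protein-coding genes in the table. Long noncoding RNA genes accounted for 4, but how many of these the table holds was not counted, so no share can be given. At the other end, 17921 genes were listed at 0 in every WT library. A value of 0 in this table need not mean an absent transcript. RPS18, which encodes a protein of the small ribosomal subunit that every dividing cell uses, was listed at 0, 0 and 0, and RPS9, another such gene, at 0, 0 and 349.8. Zeros are therefore reported below only as the value listed. The genes nearest to the threshold were OLA1P3 and LRRC37A6P, with means of 9.989 and 9.998 just outside it, and BAIAP3 and ETV2, both at 10.001 just inside it. POLDIP2 itself, the gene targeted in the other line, had normalised counts of 3919, 4827 and 4798 and a level of 108 ± 9.86 TPM in WT cells.

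Reads were spread over many genes. The 828 most abundant genes together held 50% of the normalised counts and 5734 genes held 90%. The 10 most abundant genes took 6.41% ± 0.502 of the counts. MT-CO1, which encodes the core subunit of cytochrome c oxidase, led the table with normalised counts of 510031, 679693 and 571687. The 13 mitochondrially encoded protein genes together took 4.28%, 5.57% and 5.22% of the counts, so their share was lowest in replicate 1. Among nuclear genes, the translation elongation factor EEF1A1 had the highest count, at 178997, 302057 and 254958, and was also lowest in replicate 1. The cytoskeleton came next. ACTB, the cytoplasmic beta-actin, had counts of 260838, 181396 and 195079, and FLNA, an actin cross-linker, had 220075, 165975 and 179806. ACTG1, MYH9 and VIM, encoding gamma-actin, the heavy chain of nonmuscle myosin II and vimentin, were also among the 12 highest counts. In these 5 genes replicate 1 was the highest library. The glycolytic enzymes GAPDH, PKM and ENO1 were steadier, and GAPDH stood at 177959.8, 169126 and 188827.

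**Figure D1:**
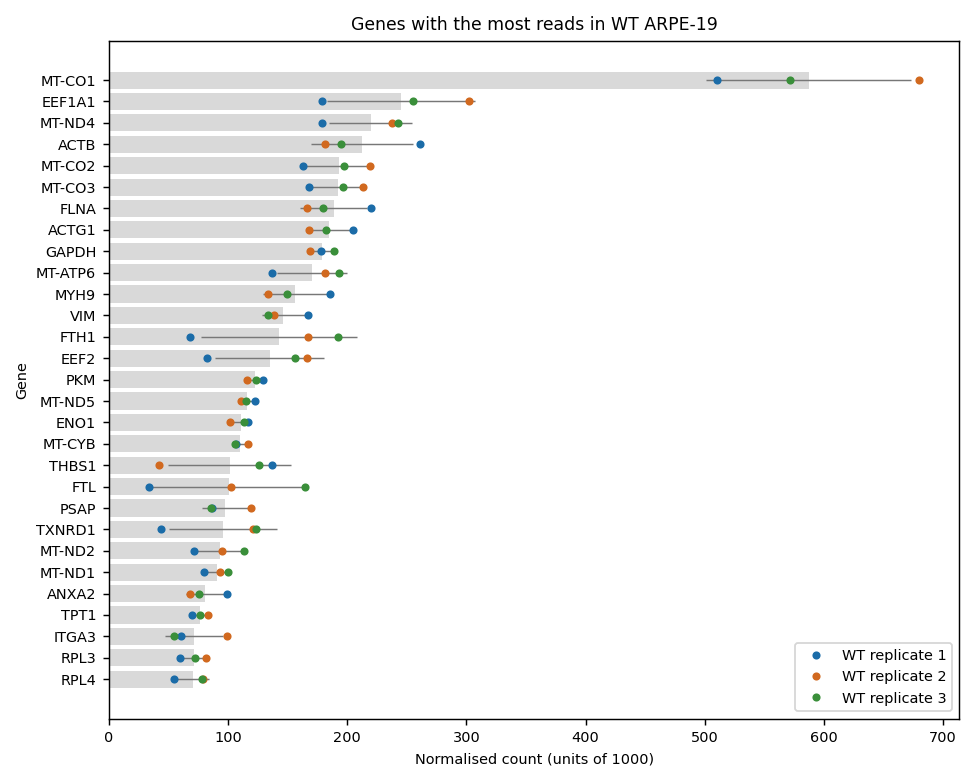
Horizontal bars give the mean normalised count (units of 1000, linear axis from 0) of genes drawn from the 30 named genes with the most reads in WT ARPE-19, error bars the SD, and points the 3 WT replicates. Replicate 1 is the lowest library for FTH1, FTL and TXNRD1, and replicate 2 is the lowest for THBS1 at 42311 against 136720 and 125526.

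To compare levels between genes, normalised counts were divided by the length of each gene's canonical transcript and scaled to the same total of 1000000 in each library (TPM). The median was 16.9 TPM over the 13788 named genes past the threshold and 5.26 TPM over all 19434 named protein-coding genes. On this scale GAPDH was the highest nuclear gene at 8935 ± 485 TPM, followed by ACTB at 7562 ± 1716 TPM. The subunits of ferritin, the iron storage complex, came directly after these, with FTH1 at 7554 ± 3351 TPM and FTL at 7328 ± 4698 TPM. In both genes replicate 1 was the lowest library, which widened the SD. The order among ACTB, FTH1 and FTL is within these spreads. Small actin-binding and calcium-binding proteins were also abundant, with TMSB10 at 4944 ± 319 TPM and S100A6 at 4553 ± 690.0 TPM. VIM stood at 4382 ± 653 TPM, rank 20 among all named genes. The 75 genes of cytosolic ribosomal proteins took 5.18% ± 0.720 of the normalised counts, and 74 of them passed the threshold. Replicate 1 was the lowest library for 71 of the 74, against 35.9% of all genes past the threshold.

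The label describes the cells as retinal pigment epithelial, and transcription factors of that lineage were present. Of 12 listed factors of the RPE and the eye field, 10 passed the threshold of 10, which 67.4% of all protein-coding genes did, with a median over the list of 9.11 ± 1.04 TPM. MITF, which directs pigment cell fate, lies on chromosome 3 (chr3:69739456-69968336, GRCh38) and had normalised counts of 4401, 3463 and 3629, or 51.4 ± 8.08 TPM. PAX6, the eye-field regulator, was the highest of the list at 87.4 ± 7.10 TPM. The values of both were close in the 3 libraries, with highest over lowest ratios of 1.27 and 1.18. OTX2, which acts with MITF on pigment and visual cycle genes, had counts of 669, 883 and 733 and a level of 16.2 ± 2.13 TPM. SOX9, LHX2 and SIX3 stood at 52.01, 38.2 and 34.4 TPM. SIX6, which acts in the developing neural retina, was listed at 0 in all libraries. RAX, an early eye-field factor, had counts of 47.2, 17.1 and 8.35, and CRX, a photoreceptor factor, 45.3, 48.2 and 41.8.

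Some effector genes of the mature RPE were low, and others were not. The visual cycle and retinoid list had a median of 1.76 ± 0.778 TPM, members at 0 included. Over all named protein-coding genes the median was 5.26 TPM. Of all protein-coding genes, 67.4% passed the threshold. Of 11 visual cycle and retinoid genes in the table, 7 passed the threshold, a share close to that, and 4 were listed at 0 in every library. The latter were RPE65, the isomerase of the visual cycle, RGR, a retinal G protein-coupled receptor, and the retinoid carriers TTR and RBP4. LRAT, which esterifies retinol, had counts of 106, 75.3 and 29.2 and a level of 0.927 ± 0.528 TPM. RLBP1, the carrier of 11-cis-retinoids, had counts of 30.2, 68.2 and 31.3 and stood at 1.69 ± 0.830 TPM. Both were thus detected but low, and neither was steady among the libraries. RDH5, the 11-cis-retinol dehydrogenase, had counts of 208, 266 and 322, or 13.3 ± 2.55 TPM. By contrast, other retinoid enzymes were well above the median of all genes. RDH11 stood at 106 ± 20.1 TPM, DHRS3 at 75.7 ± 13.4 TPM and RDH10 at 94.7 ± 57.97 TPM. RDH10 oxidises retinol in embryonic tissues, and the study used it as an RPE marker. The RDH10 counts of 9656, 3518 and 4159.8 were highest in replicate 1.

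Pigment genes split in the same way. Of 12 listed genes, 6 passed the threshold, against 67.4% of protein-coding genes. TYR, the rate-limiting enzyme of melanin synthesis, was at normalised counts of 1.89, 0 and 0, and DCT, which acts after it, was listed at 0 in all libraries, as was the melanosomal exchanger SLC24A5. TYRP1, the third enzyme of the pathway, had counts of 23.6, 12.04 and 1.04, at 0.0227 to 0.540 TPM. PMEL, which forms the fibrils of the melanosome, had counts of 74.6, 103 and 76.2, or 2.56 ± 0.465 TPM. GPR143, a receptor on the melanosome membrane, was higher, with counts of 988, 1296 and 1199 and a level of 45.3 ± 5.23 TPM. The trafficking GTPases RAB27A and RAB38 stood at 30.9 and 18.04 TPM. GPNMB, a transmembrane glycoprotein of melanosomes and lysosomes related to PMEL, was by far the highest, with counts of 25095, 18137 and 12555 and a level of 454 ± 165 TPM. Its level was highest in replicate 1 and lowest in replicate 3.

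Several of these promoters share the same short sequence although their transcripts differ widely in level. MITF binds an E-box known as the M-box, here searched as TCATGTG on both strands in 300 bases of RefSeq promoter (GRCh38.p14), which is 250 bases before and 50 after the start site. For a listed gene only its first window was searched, while the share of all promoters counts every window. The sequence was found in 5 of the 9 pigment genes that had an entry, and in 2.92% of all 35116 promoters. The 250 upstream bases of those 5 are shown, with the motif or its reverse complement in capitals. They are TYR (chr11:89177625-89177874, plus strand), TYRP1 (chr9:12693135-12693384, plus strand), SLC24A5 (chr15:48120740-48120989, plus strand), GPR143 (chrX:9765848-9766097, minus strand) and GPNMB (chr7:23246525-23246774, plus strand).
TYR: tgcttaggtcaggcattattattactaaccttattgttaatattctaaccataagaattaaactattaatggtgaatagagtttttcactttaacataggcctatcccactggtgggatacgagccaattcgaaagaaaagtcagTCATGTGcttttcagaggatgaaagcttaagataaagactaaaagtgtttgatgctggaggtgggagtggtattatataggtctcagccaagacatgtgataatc
TYRP1: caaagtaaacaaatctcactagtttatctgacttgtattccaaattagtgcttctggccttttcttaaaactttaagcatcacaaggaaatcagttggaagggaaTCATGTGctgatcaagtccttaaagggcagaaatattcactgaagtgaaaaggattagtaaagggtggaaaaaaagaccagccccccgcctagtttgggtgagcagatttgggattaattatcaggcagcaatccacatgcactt
SLC24A5: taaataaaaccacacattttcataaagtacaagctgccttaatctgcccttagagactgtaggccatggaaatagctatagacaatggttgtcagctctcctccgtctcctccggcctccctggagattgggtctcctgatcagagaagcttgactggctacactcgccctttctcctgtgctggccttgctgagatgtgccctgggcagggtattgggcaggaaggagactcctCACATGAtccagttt
GPR143: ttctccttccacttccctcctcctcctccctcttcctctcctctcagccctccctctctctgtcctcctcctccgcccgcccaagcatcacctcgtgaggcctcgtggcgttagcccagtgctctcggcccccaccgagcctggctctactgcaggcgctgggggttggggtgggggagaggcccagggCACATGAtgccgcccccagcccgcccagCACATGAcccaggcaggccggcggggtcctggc
GPNMB: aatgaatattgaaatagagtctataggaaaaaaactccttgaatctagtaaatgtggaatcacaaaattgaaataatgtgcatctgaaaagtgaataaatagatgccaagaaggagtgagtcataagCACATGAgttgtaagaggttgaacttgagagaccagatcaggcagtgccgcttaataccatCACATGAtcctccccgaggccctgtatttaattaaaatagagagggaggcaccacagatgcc
Counted from the start site, with upstream positions negative and no position 0, the motif began at -105 in TYR, -145 in TYRP1 and -15 in SLC24A5. GPR143 and GPNMB, the pair with the highest transcript levels of these 5, each held it at 2 places, at -61 and -33 in GPR143 and at -123 and -62 in GPNMB. A match describes these letters only, and binding was not measured here.

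Channels and transporters of the RPE differed widely in level. Of 12 listed genes, 9 passed the threshold, against 67.4% of protein-coding genes, with a list median of 40.5 ± 8.46 TPM. This median depended on the gene lengths used, and was 17.6 TPM with the union of all exons as length. BEST1, the basolateral chloride channel of the RPE, had counts of 61.4, 562 and 377, a 9.02-fold range in which replicate 1 was lowest. KCNJ13, an apical potassium channel, and SLC16A8, the lactate transporter of the basolateral RPE, were listed at 0 throughout. The lactate transporter SLC16A3 was instead high at 491 ± 118 TPM, with counts of 24642, 16923 and 17819. SLC16A1, another of this family, had counts of 467, 188 and 27.1, with replicate 3 far below the others. The glucose transporter SLC2A1 stood at 455 ± 87.97 TPM. The sodium pump subunit ATP1B1 was at 95.7 TPM, and the chloride intracellular channel genes CLIC4 and CLIC6 at 440.2 and 69.2 TPM.

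Genes for outer segment phagocytosis were the most complete of the RPE lists. All 12 passed the threshold, against 67.4% of protein-coding genes, at a list median of 114 ± 37.8 TPM. The binding receptor of this process is the integrin alpha-v beta-5, and its subunits ITGAV and ITGB5 stood at 233 ± 67.4 TPM and 314 ± 21.8 TPM. MFGE8, its bridging ligand, was at 128 ± 39.1 TPM. Replicate 3 was the lowest library for 7 of the 12 genes, against 32.6% of all genes. GAS6 and PROS1, the ligands of the TAM receptor kinases, were at 91.6 ± 28.04 TPM and 99.98 ± 37.5 TPM. These 3 ligands each had their highest value in replicate 1 and their lowest in replicate 3. MERTK, the TAM receptor that drives engulfment in the RPE, was low, with counts of 35.9, 53.2 and 30.3 and a level of 0.668 ± 0.197 TPM. AXL, a related receptor, was high instead at 415 ± 59.6 TPM, with counts of 31469.9, 25703 and 34193. CD36, a scavenger receptor, had counts of 14.2, 22.1 and 11.5. EZR, which builds the apical microvilli, stood at 651 ± 191 TPM.

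Epithelial genes were divided between the cytoskeleton and the junctions. Of 18 listed, 12 passed the threshold, a share close to the 67.4% of all protein-coding genes. KRT8 and KRT18, the keratin pair of simple epithelia, were at 1427 ± 175 TPM and 1463 ± 115 TPM, with counts of 43870.0, 37781 and 36970.4 for KRT8 and 33201, 33249 and 29925 for KRT18. KRT7 stood at 187 ± 61.2 TPM. KRT19, another simple-epithelial keratin, had counts of only 2.83, 1.00 and 5.22. The adhesion genes of classical epithelia were near 0. CDH1, the epithelial cadherin, had counts of 3.78, 10.03 and 0, and EPCAM 1.89, 5.02 and 0. The epithelial regulators GRHL2 and ESRP1 had at most 2.01 and 9.45 normalised counts in any library. Tight junction genes were present at moderate levels, with CLDN1 at 28.2 ± 14.3 TPM, TJP1 at 22.3 ± 7.16 TPM and OCLN at 9.68 ± 1.82 TPM. CLDN19, the main claudin of native RPE, had counts of 4.72, 0 and 1.04. CDH3, the cadherin of native RPE, had counts of 47.2, 40.1 and 28.2, or 0.558 ± 0.152 TPM.

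Some mesenchymal genes were among the most abundant transcripts, but the set was not complete. Of 25 in the table, 20 passed the threshold, against 67.4% of protein-coding genes, and the list median was 14.0 ± 5.998 TPM. VIM was the highest, and its counts of 166862, 138762 and 133876 were 1.25-fold apart at most. CDH2, the cadherin of neural and mesenchymal cells, stood at 175 ± 69.8 TPM, and the mesenchymal cadherin CDH11 at 88.8 ± 33.3 TPM. FN1, encoding fibronectin, had counts of 78077, 21007 and 25817, with replicate 1 well above the other libraries. The contractile genes MYL9, CALD1 and ACTA2 stood at 323, 285 and 106 TPM. TAGLN, encoding transgelin of smooth muscle and myofibroblasts (chr11:117199370-117207464), had counts of 35183, 2228 and 1425, a 24.7-fold range set by replicate 1. The transcription factors ZEB2, ZEB1 and TWIST1 were at 21.2 ± 2.75 TPM, 13.5 ± 3.71 TPM and 11.7 ± 2.06 TPM, close to the median of all genes. SNAI1 had counts of 31.2, 24.1 and 57.4, and SNAI2 was listed at 0.

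Some genes that define fibroblasts were low in the same libraries, and others were not. DCN and LUM encode small proteoglycans of connective tissue. DCN had counts of 0, 3.01 and 1.04, and LUM had 0.945 in replicate 1 and was listed at 0 in the others. Of the fibrillar collagens of stroma, COL1A1 had counts of 2147, 320.1 and 677, while COL1A2 and COL3A1 had at most 9.45 and 7.31 in any library. THY1, a fibroblast surface protein, had 29.3, 36.1 and 54.3. PDGFRB, the platelet-derived growth factor receptor of mesenchymal cells, was among those not low, at 32.7 ± 18.3 TPM. FAP and POSTN are genes of activated fibroblasts, and both were highest in replicate 1. The counts were 853, 185 and 122 for FAP, and 76.5, 4.01 and 6.26 for POSTN. Over the whole list, 10 of the 20 genes past the threshold varied at least 2-fold among the replicates, whereas 15.8% of all genes past it did. In 9 of the 10 replicate 1 was the highest library, which held for 915 of the 2316 genes that varied at least 2-fold. Between libraries the list median was 20.9, 10.4 and 10.7 TPM.

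**Figure D2:**
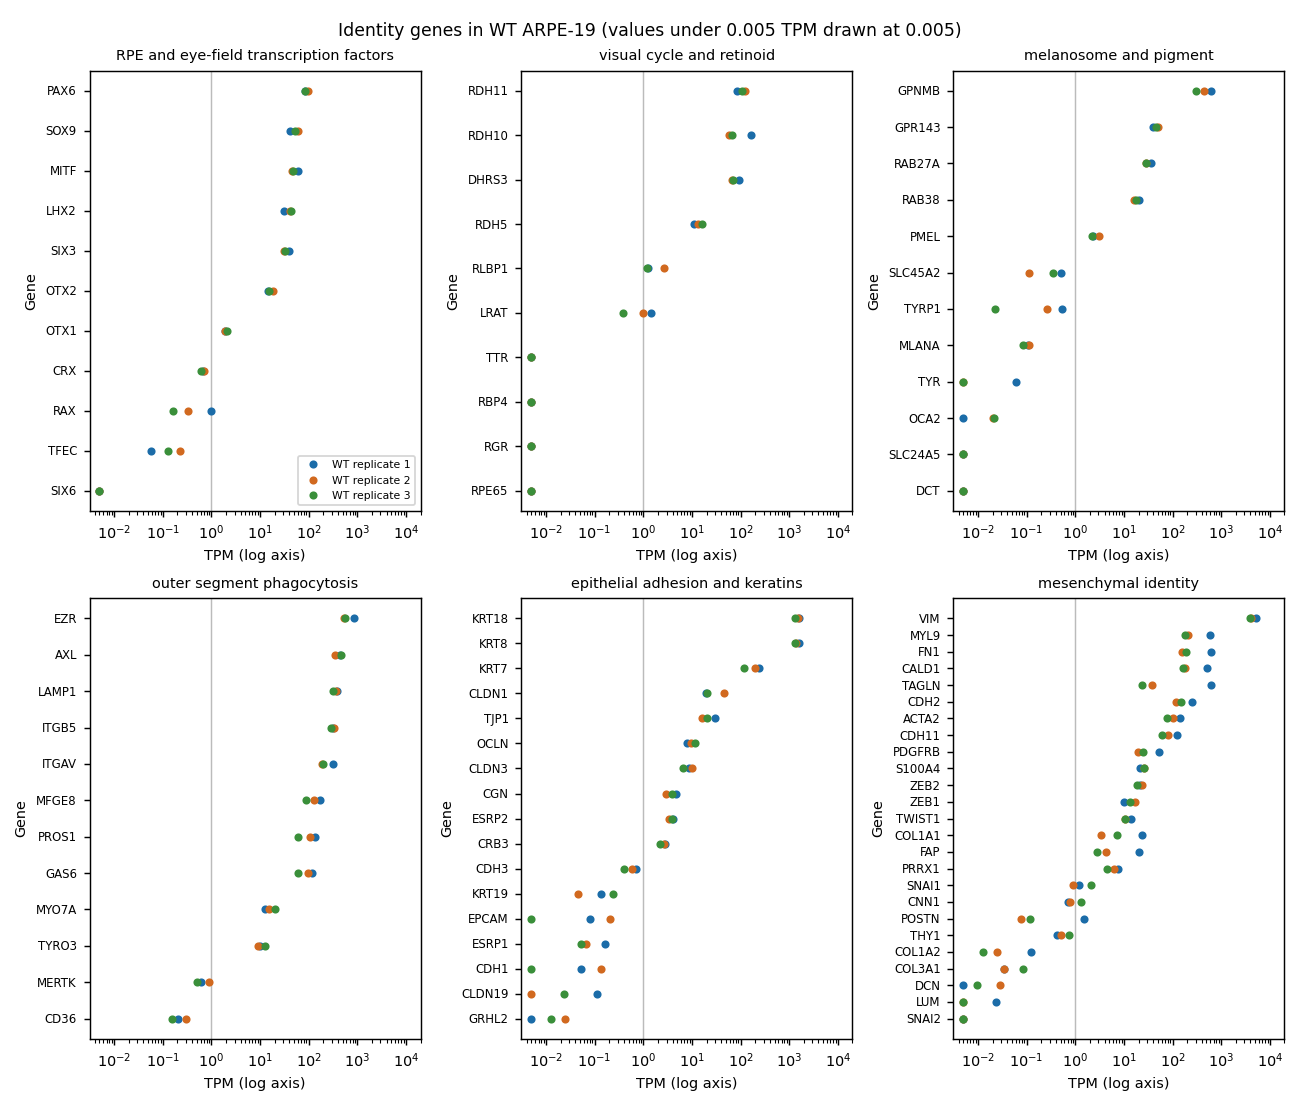
Points give the level (TPM, log axis) of genes of 6 lists in the 3 WT replicates, sorted by mean within a list, with a grey line at 1 TPM. MITF, PAX6, KRT8, KRT18 and VIM lie well to the right in all libraries, while RPE65, RGR, DCT and SIX6, listed at 0, are drawn at the left edge at 0.005.

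Markers of other cell types were checked in the same way, beside the 67.4% of all protein-coding genes that passed the threshold. Of 7 photoreceptor genes, 2 passed the threshold, and ARR3, GNAT1 and OPN1SW, which encode an arrestin, a transducin and an opsin, were listed at 0 in all libraries. PDE6B, a phosphodiesterase subunit of rods, was the exception at 323, 422 and 344 normalised counts, and NRL had 12.3, 12.04 and 6.26. Of 8 endothelial genes 3 passed, namely VWF with 35.9, 30.1 and 11.5, KDR with 161, 33.1 and 19.8 and EGFL7 with 332, 426 and 319.5, while CDH5 and PECAM1 had at most 4.18. Of 8 leukocyte genes 2 passed, CSF1R with 48.2, 24.1 and 15.7 and ITGAM with 3.78, 28.1 and 37.6, and PTPRC was listed at 0. Of 8 neuronal genes only SYP passed, with 20.8, 25.1 and 18.8. Of 6 melanocyte and Schwann cell genes 1 passed, and SOX10 was listed at 0. Together each of these 5 lists took at most 0.0013% of the normalised counts on average. Proliferation genes were all well expressed. The 16 listed had a median of 113 ± 23.7 TPM, with MKI67 at 77.7 ± 23.4 TPM and PCNA at 385 ± 58.5 TPM. CCND1, the cyclin of the G1 phase, stood at 739 ± 154 TPM, and CDKN1A, a cell cycle inhibitor, at 408 ± 83.9 TPM.

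Collagen genes took 0.712%, 0.417% and 0.409% of the normalised counts in the 3 libraries. Of 44 in the table, 24 passed the threshold, against 67.4% of protein-coding genes, and 7 were listed at 0 in every library. The highest levels belonged to type IV collagen, the network collagen of basement membranes. COL4A2 stood at 462 ± 209 TPM (chr13:110305812-110513209), with counts of 68383, 36208 and 33402, and COL4A1 at 361 ± 234 TPM, with counts of 61714, 18322 and 29148. Both were highest in replicate 1. COL11A1, a minor fibrillar collagen best known in cartilage and the vitreous, followed at 279.9 ± 133 TPM, with counts of 47801, 24159.9 and 22819. COL12A1, a fibril-associated collagen, stood at 211 ± 28.6 TPM, and COL8A1, a short-chain collagen of Bruch's membrane and Descemet's membrane, at 205 ± 15.6 TPM. COL4A2 overlapped in range with COL4A1 and COL11A1 and lay above COL12A1 and COL8A1 in every library. COL5A2, next in order at 67.9 ± 25.1 TPM, lay below all 5 in every library. The alpha 3, alpha 4 and alpha 5 chains of type IV collagen stood at 13.4, 27.8 and 16.4 TPM. COL18A1, the source of endostatin, was at 10.03 ± 1.13 TPM. Among the 24 genes past the threshold, 15 varied at least 2-fold among replicates, as did 15.8% of all genes. Of the 24, 11 varied at least 2-fold with replicate 1 highest and 8 with replicate 3 lowest, against 6.24% and 5.85% of all genes. Among varying genes alone, these held for 11 and 8 of the 15 collagens and for 915 and 858 of all 2316. COL5A1 ranged widest of the collagens with a mean of at least 100, with counts of 437, 92.3 and 34.5. COL8A1, COL12A1 and COL7A1 by contrast stayed within a ratio of 1.25.

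Matrix glycoproteins and proteoglycans were led by TGFBI, a matrix protein that binds collagens and integrins, at 1444 ± 627 TPM. THBS1, a matricellular protein that restrains vessel growth (chr15:39581079-39599466), stood at 841 ± 435 TPM. Its counts of 136719.8, 42311 and 125526 were low in replicate 2 alone. SPARC, a collagen-binding protein, was at 790.3 ± 306 TPM. Of the 38 genes on this list past the threshold, 8 varied at least 2-fold with replicate 2 lowest, against 4.01% of all genes. The matricellular genes CCN1 and CCN2 stood at 555 ± 176 TPM and 362 ± 171 TPM, each highest in replicate 1 and lowest in replicate 3. Proteoglycans and laminin chains of basement membranes were steadier. AGRN and HSPG2, the heparan sulfate proteoglycans agrin and perlecan, stood at 329.8 ± 33.3 TPM and 103 ± 18.8 TPM. The laminin chains LAMC1, LAMB2 and LAMB1 stood at 173 ± 25.1 TPM, 132 ± 8.60 TPM and 57.8 ± 3.03 TPM, and the ratio of highest to lowest library was 1.05 for LAMB1. Of the alpha chains, LAMA5 was highest at 28.9 TPM, followed by LAMA4 at 18.99 and LAMA3 at 11.3 TPM. EFEMP1, a fibulin linked to an inherited macular dystrophy, stood at 214 ± 61.7 TPM, and FBN1, the main fibrillin, at 144 ± 83.6 TPM. ELN, encoding elastin, had counts of 3.78, 0 and 1.04, and BGN and MFAP2 were listed at 0. Of the 45 genes on the list, 38 passed the threshold, against 67.4% of protein-coding genes. Of these 15 varied at least 2-fold, against 15.8% of all genes. In 11 of the 15 replicate 1 was highest, as it was in 915 of all 2316 varying genes.

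Enzymes that modify or degrade matrix were well represented, with a list median of 119 ± 32.1 TPM. Of 26, 22 passed the threshold, against 67.4% of protein-coding genes. The inhibitors of metalloproteinases TIMP2, TIMP3 and TIMP1 stood at 739 ± 319 TPM, 311 ± 166 TPM and 199 ± 17.4 TPM. TIMP3 is a resident of Bruch's membrane and is mutated in Sorsby fundus dystrophy. The membrane-bound protease MMP14 was high at 365 ± 101 TPM, while the secreted MMP2 stood at 10.8 ± 5.76 TPM and MMP1, MMP3 and MMP9 had at most 8.35 normalised counts in any library. The lysyl oxidases that cross-link collagen and elastin were abundant, with LOXL2 at 445 ± 183 TPM, LOX at 279.6 ± 145 TPM and LOXL1 at 215 ± 30.5 TPM. Of the collagen-processing enzymes, P4HB stood at 527 ± 157 TPM, PLOD2 at 372 ± 96.2 TPM and the chaperone SERPINH1 at 227 ± 51.8 TPM. Among the receptors for this matrix, 18 of 26 integrin genes passed the threshold, a share close to the 67.4% of all protein-coding genes. ITGB1, the common beta subunit, had the highest level at 1181 ± 342 TPM. ITGA3, a laminin receptor subunit, had counts of 60227, 99419 and 54392, highest in replicate 2, and stood at 937 ± 315 TPM.

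Of 40 listed secreted factors in the table, 37 passed the threshold, against 67.4% of protein-coding genes. The list median was 40.03 ± 5.02 TPM. Binding proteins of insulin-like growth factors were among the most abundant. IGFBP7 stood at 641 ± 211 TPM, and IGFBP3 at 573 ± 534 TPM with counts of 45841, 4952 and 18069.6, low in replicate 2. IGFBP5 had counts of 4903, 2456 and 451, low in replicate 3, whereas IGFBP6 was steady at 1928, 1908 and 1791, and IGFBP4 was listed at 0. CST3, the protease inhibitor cystatin C that RPE secretes in quantity, stood at 258 ± 51.8 TPM. Of the growth factors, TGFB2 was at 251 ± 79.4 TPM, FGF2 at 242 ± 42.5 TPM and PDGFC at 131 ± 15.5 TPM. TGFB2 exceeded TGFB1, which stood at 45.7 ± 7.84 TPM, and TGFB3, at 2.18 ± 0.760 TPM, in every library. VEGFA, the main angiogenic factor released by RPE, was at 78.4 ± 20.4 TPM, with counts of 5391, 4444 and 3323. SERPINF1, which encodes the antiangiogenic PEDF of the RPE, stood lower at 5.62 ± 1.55 TPM, with counts of 103, 168 and 108. The level of VEGFA was thus above that of SERPINF1 in each library. Among inflammatory mediators, CCL2 stood at 145 ± 21.04 TPM and CXCL8 at 36.5 ± 24.2 TPM. The counts of CXCL8 were 213, 1293 and 1323, low in replicate 1. IL6 had counts of 57.6, 126 and 55.3. The products of APOE, VTN and CLU are found in drusen, the deposits beneath the RPE. CLU had counts of 1297, 2750.2 and 2182, whereas APOE and VTN had at most 69.2 and 79.4 in any library. HTRA1, a secreted serine protease at a locus for macular degeneration, stood at 36.1 ± 7.84 TPM.

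**Figure D3:**
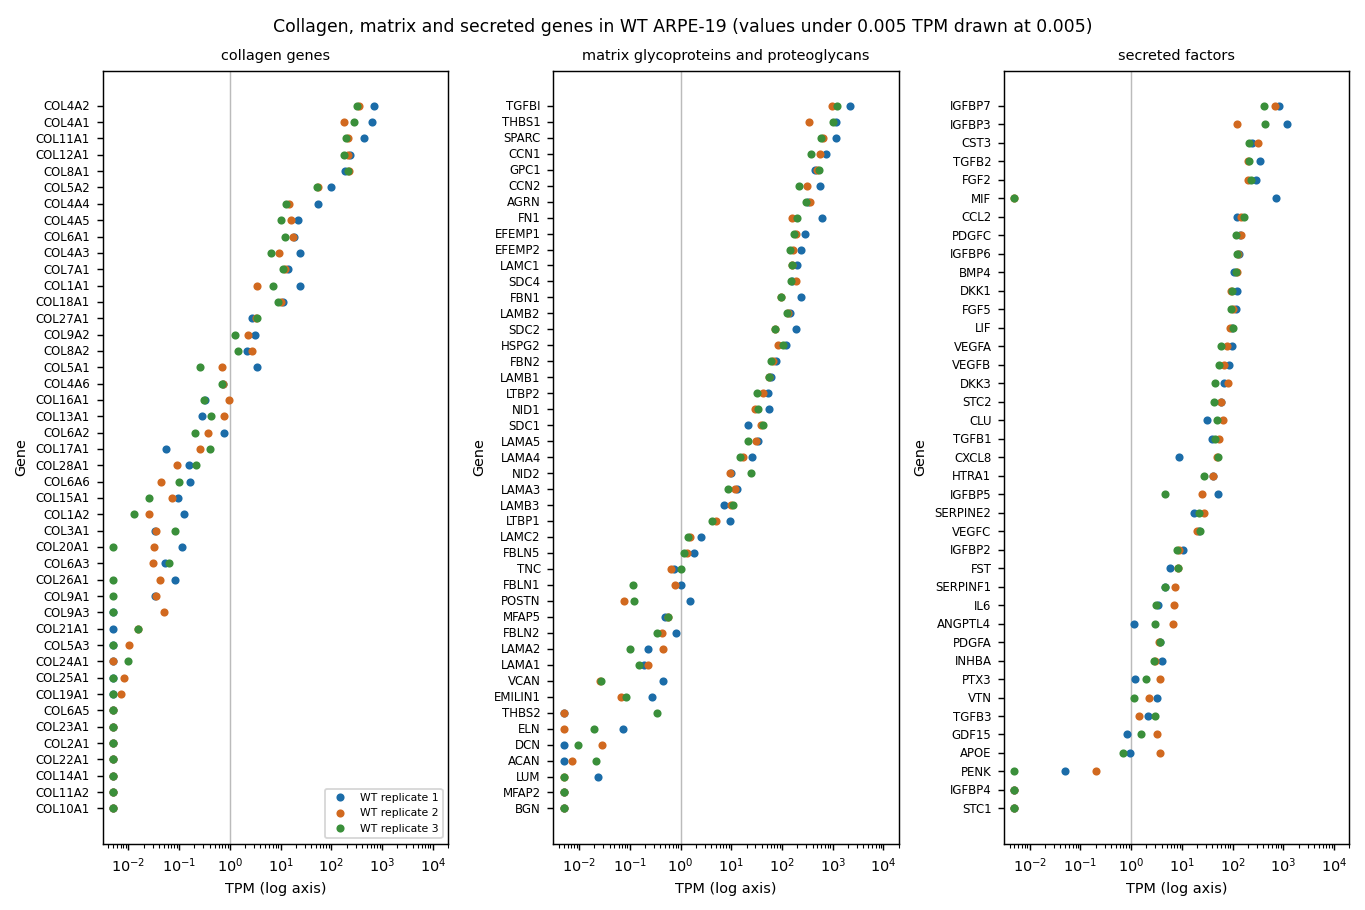
Points give the level (TPM, log axis) of collagen genes, matrix glycoproteins and proteoglycans, and secreted factors in the 3 WT replicates, sorted by mean, with values under 0.005 drawn at 0.005. COL4A2, TGFBI and IGFBP7 head the panels as drawn, and for COL4A1 and COL4A2 the point of replicate 1 lies to the right of the others.

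The 3 WT libraries were similar for most genes but not for all. Pearson's r of log2(normalised count + 1) over the 14671 genes was 0.950 between replicates 1 and 2, 0.944 between 1 and 3 and 0.956 between 2 and 3. Genes are not independent, so these coefficients describe the libraries only. The ratio of the highest to the lowest library, each with 1 added, had a median of 1.338, and the median coefficient of variation was 15.2%. The ratio was at least 2 for 2316 genes (15.8%), at least 1.5 for 5082 (34.6%) and at least 10 for 333. The biological coefficient of variation, which is the spread beyond counting error estimated with edgeR from the recovered reads, was 0.299 over all genes. Spread depended on level. Genes with means of 10 to 30 had a median coefficient of variation of 41.2%, where counting alone would give 24.1%. For means of 3000 to 10000 it was 10.8%, against 1.49% from counting. Depth therefore limited the low genes in part, while in abundant genes the libraries differed by more than counting error.

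**Figure D4:**
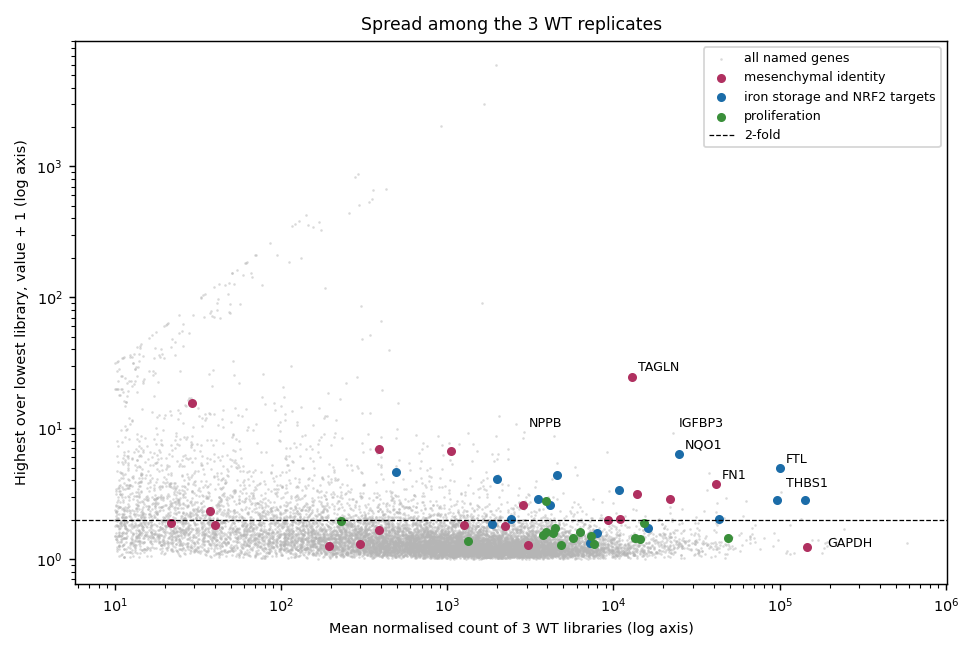
Each grey point is a named gene, plotted by its mean normalised count over the 3 WT libraries and by the ratio of its highest to its lowest library with 1 added (both log axes), with a dashed line at 2-fold and coloured points for 3 lists. The proliferation genes lie near or under the line, while TAGLN reaches 24.7 and most iron storage and NRF2 targets lie above the line.

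Among genes varying at least 2-fold, replicate 1 was the library farthest from the median in 1027 (44.3%), replicate 2 in 619 and replicate 3 in 670. Replicate 1 was the highest library in 915 of them and the lowest in 870, so neither direction dominated. All 20 named genes with the largest ratios at a mean of at least 100 were listed at 0 in at least 1 library. MIF, a cytokine, had counts of 5904, 0 and 0, FLOT1, a membrane scaffold, 0, 1998 and 3019.6, and AATF, a transcription factor, 835, 0 and 0. In all, 78 genes were listed at 0 in 1 WT library or more and had at least 100 in another. Those with a symbol were 43 of 11672, or 0.368%, and those without were 35 of 623, or 5.62%. In a window of chromosome 6 chosen after these values were seen (chr6:29555629-33409896), which spans the major histocompatibility complex from GABBR1 to KIFC1, 6 of 60 genes showed this pattern, or 10%, among them PPP1R10, MICA and RGL2. The cause of this pattern was not tested. At the other extreme, MEN1, a tumour suppressor, had counts of 1305, 1303 and 1302. SPOP, a ubiquitin ligase adaptor, had 1439, 1439.8 and 1437, and PSMD13, a proteasome subunit, had 3790.1, 3789 and 3782.

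Differences among the replicates ran through whole groups of genes. Actin-regulated genes were among those highest in replicate 1. In the list of YAP and SRF targets, which respond to the state of the actin cytoskeleton, replicate 1 was the highest library for 15 of 18, whereas it was the highest for 36.2% of all genes past the threshold. The median ratio of replicate 1 to the mean of the others was 1.503 over the list and 0.996 over all genes. TPM1, tropomyosin 1, had counts of 64395, 31537 and 36435, ANKRD1, a cardiac and stress-induced YAP target, 16262, 7160.0 and 4951, and MYL9 24562, 9195 and 7812. FSTL1, a secreted glycoprotein chosen after its values were seen, had 81119, 27800.1 and 33579. NPPB, a natriuretic peptide gene induced by stretch in heart muscle, had 6676, 1261 and 718, and was chosen after its values were seen. Replicate 1 was also the highest library for 13 of 14 genes of hypoxia and glycolysis. CA9, a carbonic anhydrase induced by low oxygen, had counts of 4741, 2309 and 2978, BNIP3 9357, 5052 and 5532 and PGK1 37677, 27393 and 27462. Of these 14 genes 2 varied at least 2-fold, a share close to the 15.8% of all genes.

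Iron storage and NRF2 target genes were low in replicate 1. NRF2 is the transcription factor that induces antioxidant and glutathione genes, and this list of 16 was drawn up after the values of FTL, FTH1 and TXNRD1 had been seen. FTL (chr19:48965309-48966879) had counts of 33454, 102721 and 164958, FTH1 68139, 167200.1 and 192169 and TXNRD1, thioredoxin reductase 1, 43497, 120531 and 123288. All 16 genes had their lowest value in replicate 1 and 15 had their highest in replicate 3, against 35.9% and 31.8% of all genes. NQO1, a quinone reductase that is a classical NRF2 target, had 6899, 23738 and 44125, HMOX1, which degrades haem, 700.0, 2456 and 2856, and the cystine transporter SLC7A11 1790.2, 4065 and 7886. Of the 16, 12 varied at least 2-fold with replicate 1 lowest and replicate 3 highest, against 5.93% and 4.09% of all genes for these criteria. The median ratio of replicate 1 to the mean of the others was 0.378. The list took 1.27% ± 0.618 of the normalised counts. Replicate 1 was thus low for these genes, for ribosomal proteins and for mitochondrially encoded genes, and it was the highest library for most YAP and SRF targets. It was also the highest for 27 of 38 matrix glycoprotein and proteoglycan genes, although the median of that list was 20.96 TPM in replicate 1, 16.8 in replicate 2 and 21.5 in replicate 3. Its total of normalised counts, 37464434, was close to 36640003 and 37082617 in the others. What separates this library from the others in culture or handling is not given in the labels, and was not tested.

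Replicate 2 was most often the highest library in the unfolded protein and amino acid response and in cholesterol synthesis. It was most often the lowest in proliferation genes. Of 14 genes of the unfolded protein and amino acid response, 10 were highest in replicate 2 and 10 lowest in replicate 1, against 32.0% and 35.9% of all genes. A further 3 were highest in replicate 1, against 36.2% of all genes. By total the order differed, as the list took 0.255%, 0.222% and 0.203% of the normalised counts, most in replicate 1. In the same list 4 genes varied at least 2-fold, all highest in replicate 2, as did 5.46% of all genes. DDIT3, the stress transcription factor CHOP, had counts of 316, 1510.1 and 446, TRIB3, its target, 799, 2740.2 and 1059.8 and CHAC1, which degrades glutathione, 91.6, 373 and 169. ATF4, the regulator above them, had 1718, 2595 and 2063, a smaller difference. In the immediate early and stress list 8 of 14 genes were highest in replicate 2, against 32.0% of all genes. Of the 14, 7 varied at least 2-fold, against 15.8% of all genes. Of these 7, 4 were highest in replicate 2 and 4 lowest in replicate 1. These held for 801 and 870 of all 2316 varying genes. ATF3, a stress-induced factor, had 593, 2457 and 1086, FOS 34.95, 381 and 53.3 and FOSB 89.7, 594 and 246. JUN, with 4551, 5761 and 4625, and DUSP1, with 8854, 9109 and 6968, were closer among the libraries. The heat shock genes HSPA1A and HSPA1B, near-identical copies whose reads may have been split between them, were instead lowest in replicate 2, at 1239, 630.1 and 1335 and at 825, 567 and 1012. Cholesterol synthesis genes were highest in replicate 2 in 12 of 15, against 32.0% of all genes. Only 1 of the 15 varied at least 2-fold, against 15.8% of all genes. Among those highest in replicate 2 was INSIG1, a sterol-regulated brake on this pathway, at 4003, 6432 and 4475. SCD, a desaturase of fatty acids chosen after its values were seen, had 36314, 100767 and 51889. Conversely, proliferation genes were lowest in replicate 2 in 14 of 16, against 31.5% of all genes, though only 1 varied at least 2-fold. RRM2, a subunit of ribonucleotide reductase, had 5584, 2013 and 4179.6, and MKI67 16690.0, 10206 and 19172. CCND1 and CDKN1A were the exceptions, both highest in replicate 2.

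The promoter windows searched for 4 genes that were highest in replicate 2 hold a sequence of the amino acid response element type. It was searched as TGATGNAA on both strands, in the first window listed for a gene. Other start sites of these genes were not searched. ATF4 and its partners bind such elements. The motif lay in 3 of 15 promoters of the unfolded protein and amino acid response list, those of ASNS, CHAC1 and HERPUD1, in 1 of 12 of the immediate early and stress list, that of ATF3, and in 3.62% of all 35116 promoters. The 250 upstream bases of ASNS (chr7:97872409-97872658, minus strand), CHAC1 (chr15:40953221-40953470, plus strand) and ATF3 (chr1:212565157-212565406, plus strand) are shown with the motif or its reverse complement in capitals. HERPUD1, a membrane protein of the endoplasmic reticulum with counts of 2176, 4238 and 3164, is not shown.
ASNS: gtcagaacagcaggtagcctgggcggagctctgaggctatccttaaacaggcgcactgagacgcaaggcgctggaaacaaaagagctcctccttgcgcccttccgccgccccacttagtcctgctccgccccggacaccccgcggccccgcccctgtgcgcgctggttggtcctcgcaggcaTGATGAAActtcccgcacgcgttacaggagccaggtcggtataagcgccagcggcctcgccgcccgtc
CHAC1: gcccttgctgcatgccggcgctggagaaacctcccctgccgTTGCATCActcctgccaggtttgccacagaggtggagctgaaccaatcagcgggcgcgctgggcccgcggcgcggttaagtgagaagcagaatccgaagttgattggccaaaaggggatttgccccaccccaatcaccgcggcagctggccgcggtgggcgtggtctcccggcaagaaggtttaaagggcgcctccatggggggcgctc
ATF3: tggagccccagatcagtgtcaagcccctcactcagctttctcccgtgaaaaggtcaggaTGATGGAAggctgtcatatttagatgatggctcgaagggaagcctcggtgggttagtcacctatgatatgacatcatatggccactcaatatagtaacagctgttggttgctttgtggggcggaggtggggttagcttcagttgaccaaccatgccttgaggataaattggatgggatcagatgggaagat
The motif began at -68 in ASNS, -209 in CHAC1 and -191 in ATF3. ASNS, asparagine synthetase, had counts of 1562, 2773 and 1734. DDIT3, with the widest range on that list at 4.76-fold, and TRIB3 had no match in the window searched for each.

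**Figure D5:**
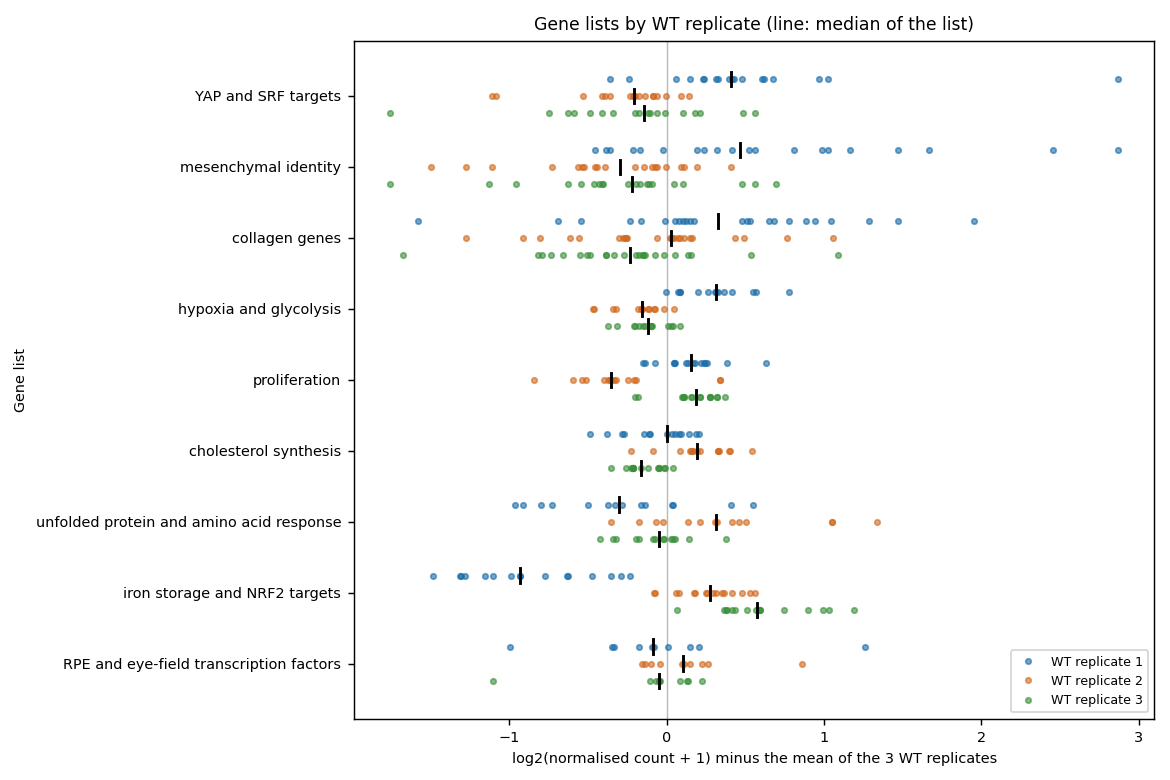
Each point is a gene past the threshold, plotted by log2(normalised count + 1) in a WT replicate minus the mean of the 3 (horizontal axis) for 9 lists, and black lines give the median of a list in a replicate. Iron storage and NRF2 targets lie left of 0 for all 16 genes in replicate 1, proliferation genes lie left of 0 in replicate 2 for most genes, and RPE transcription factors centre on 0.

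Identity genes of the RPE were read against the 15.8% of all genes that varied at least 2-fold. Among the transcription factors, 2 of the 10 past the threshold varied at least 2-fold, RAX and TFEC, which had mean counts of 24.2 and 14.1. Among pigment genes 1 of 6 did, which was TYRP1, and neither share lay far from that of all genes. Among the visual cycle genes 4 of 7 did, among them LRAT, RLBP1 and RDH10. Among the channels and transporters 3 of 9 did, with BEST1 among them, and among the outer segment phagocytosis genes 1 of 12. KRT8, KRT18, VIM, MITF, OTX2, PAX6, SOX9, LHX2 and SIX3 stayed within a ratio of 1.53, so the levels given for them rest on libraries that were close to each other.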

How the data were processed

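RNA of WT ARPE-19 cells was sequenced from poly(A)-selected stranded libraries. The signal in the table deposited by the authors is a normalised count per gene. Per the submitters' processing notes and the study's methods, transcripts were quantified by Salmon 1.8 and imported as gene counts (GRCh38) through tximport, and DESeq2 1.34.0 then scaled them by size factors estimated over WT and POLDIP2 KO libraries together. The annotation release is not given in the sources used here. All columns of the table were mapped to samples, so 0 were left out, and only the WT columns were analysed.

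Reads were recovered by dividing each WT column by its lowest nonzero value, and 100.0% of values were whole within 0.001. That lowest value was taken as 1 read. In replicate 2 it was 1.00336, and the largest distance from a whole number was 8.51e-05. Gene names, positions and canonical transcript lengths came from GENCODE release 44. Where a symbol had several IDs, the ID with the highest mean was kept. TPM was computed from normalised counts and these lengths, over genes with a symbol, so it does not use the transcript lengths that Salmon estimated. Ratios between libraries used a pseudocount of 1, and a ratio of at least 2 was called varying. The biological coefficient of variation was the common dispersion of edgeR 4.0.16 (R 4.3.3) with an intercept alone, tested on simulated data. Other steps used Python 3.11.15, numpy 2.4.6 and pandas 2.3.3. The reads give counting error only, and abundant genes are the more precise.

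The members and the gene lists were chosen with earlier results of these data known, and the list of iron storage and NRF2 targets after values were seen. Named genes were list members, the 30 highest by count or TPM, the 20 with the largest and the 10 with the smallest ratio at a mean of at least 100, and those next to the threshold. Others named are integrin and ribosomal protein genes, POLDIP2, and SCD, FSTL1 and NPPB, chosen after their values were seen. STRA6, TWIST2, GREM1, ADAMTS2, SAG, LDHA and SESN2 are on the lists but were not analysed here, and some other listed genes are counted but not reported here by name. Alternatives were other filters, pseudocounts, size factors (TMM, and DESeq2 1.42.0 on WT alone), gene lengths, totals, and leaving out each replicate. Promoters were RefSeq windows on GRCh38.p14. For a listed gene the first window was searched, and shares over all promoters count every window.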

Additional observations from a re-analysis of the deposited data

How the results depend on the processing

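Under alternatives 269 values were recomputed. Of these, 235 moved by less than the spread of the replicates or stayed within 1.5 times the reported count. The other 34 moved by more. All are counts, shares, levels or spreads, which have no direction that could change. No paired analysis was possible because a single group was described and no result comes from a test. Counting only nuclear protein-coding genes, the 10 most abundant genes took 5.09%. With the union of all exons as gene length, list medians were 10.6 TPM for RPE transcription factors, 17.6 for channels and transporters, 4.52 for epithelial genes, 33.9 for secreted factors, 23.6 for matrix glycoproteins and 39.9 for immediate early genes. Leaving out mitochondrially encoded genes from TPM, an alternative chosen after seeing the data, gave 10.4, 45.9, 22.6 and 35.6 TPM for the transcription factors, secreted factors, matrix glycoproteins and immediate early genes. Requiring 10 in every library left 1 photoreceptor and 1 leukocyte marker, and a mean of at least 1 gave 6 endothelial, 3 melanocyte and Schwann cell, and 4 neuronal markers. Leaving out a replicate gave 1 to 2 photoreceptor and 1 to 2 melanocyte and Schwann cell markers.

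Genes varying at least 2-fold numbered 1321 at a mean of at least 50, 6435 with no filter, and 1080 to 1443 with a replicate left out. The count was 1080 without replicate 1, 1443 without replicate 2 and 1429 without replicate 3. A range over fewer libraries is narrower by construction. The median coefficient of variation was 13.7% at a mean of at least 50, 21.7% with no filter and 11.1% to 13.3% with a replicate left out. The share of varying genes in which replicate 1 stood apart was 49.5%, 33.8% and, requiring 10 in every library (chosen after seeing the data), 46.5%. The biological coefficient of variation was 0.237 under that last filter, and 0.255 to 0.318 with a replicate left out, the lowest being without replicate 1. Depth limits the low genes most, with a counting error of 24.1% at means of 10 to 30.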

Other observations

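Of 26 integrin genes in the table, 18 passed the mean of 10, and they covered a wide range of levels. ITGA4 had normalised counts of 7000.2, 4552 and 5373. ITGB8 had 6141, 7219 and 6484, and ITGB3, lower than both, had 3103, 2377 and 2066. ITGB2, the beta subunit of leukocyte integrins, had 0, 1.00 and 0, and ITGAX, an alpha subunit of myeloid cells, 2.83, 14.05 and 26.1.

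Immediate early and stress genes had a list median of 31.1 ± 3.53 TPM, and 14 of 15 passed the mean of 10. TXNIP, a glucose-responsive inhibitor of thioredoxin, had normalised counts of 519, 635 and 261, lowest in replicate 3.

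The CArG box, the binding sequence of SRF, was found in 2 of the 13 promoters of YAP and SRF targets with an entry, those of ACTG1 and FLNA, and in 1.29% of all promoters. The sequence TGACNNNGC, the core of the antioxidant response element, was found in 4 of 11 promoters of iron storage and NRF2 targets, those of TXNRD1, GCLM, PGD and ME1, and in 13.3% of all promoters. These matches describe letters in a window of 300 bases and no binding was measured.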
